A study of Mus musculus with 10 samples.

Results

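Cleavage of messenger RNA at 8 ACA sites in 4 genes was examined: Ythdf1 (2 sites), Ythdf2 (3 sites), Ythdc1 (1 site) and Prrc2a (2 sites). Their proteins bind N6-methyladenosine (m6A), and what is described here is cleavage of their own transcripts. The 8 sites are all those, of 1626 in the deposited table, whose 11-base sequence was found in a transcript of a member gene on the same chromosome and strand within 100 nt of the deposited transcript position. The rule itself uses gene names and no cleavage value, although the 4 genes were picked with earlier results of these data known. The study profiled polyA RNA of mouse embryonic stem cells (ESC) and of embryoid bodies (EB), the aggregates in which such cells differentiate, with and without Mettl3. The labels describe 10 libraries: 3 ESC WT, 3 ESC knockout (KO), 2 EB WT and 2 EB KO, the knockout being written METTL3 KO in the titles and Metll3-/- in the genotype label. Stem cells were expanded on feeder fibroblasts with LIF and then kept on gelatin in serum-free medium with LIF, CHIR99021 and PD0325901, and EB were cultured for 9 days in serum medium without these factors. The sources used here do not state the strain, the number of knockout clones or the deleted part of Mettl3. For each site the table holds 1 cleavage efficiency in each of the 4 groups, a fraction from 0 (uncut) to 1 (cut in every molecule), so no spread over libraries and no p-value can be given. The read depth behind each value is unknown. The table holds no expression levels, so neither the knockout nor the labelled cell types could be checked.

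The m6A mark is written on messenger RNA by a complex whose catalytic subunit is Mettl3, mostly at an A followed by C and preceded by a purine. Cleavage efficiencies at ACA are usually read with MazF, a bacterial toxin RNase that spares the sequence where its leading A is methylated, although no label used here names the enzyme. On that reading a methylated site is cut less in WT and more in KO. Proteins with a YTH domain hold the methylated base in a pocket of aromatic residues. Ythdf1 and Ythdf2 are cytoplasmic paralogs, Ythdf2 being known for recruiting the CCR4-NOT deadenylase complex to methylated transcripts, and Ythdc1 is the nuclear reader linked to splicing and export. Prrc2a, a proline-rich protein without a YTH domain, has also been described as binding m6A.

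All 8 sites lay in coding sequence, as did 57.2% of all 1473 matched sites, so the surroundings of the 8 can be shown. Each sequence below is 61 bases of the matched GENCODE M21 transcript (GRCm38), 5′ to 3′, with 30 bases on either side of the first A of ACA, and the 5 bases in capitals are the motif, with that A in their middle. They are shown because the YTHDF family sites all carry GGACA and the other 3 sites AGACA, and because a pair of them share more than the motif. Names give the gene and the deposited position in the transcript.
Ythdf1 496: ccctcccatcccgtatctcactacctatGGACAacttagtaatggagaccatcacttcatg
Ythdf2 600: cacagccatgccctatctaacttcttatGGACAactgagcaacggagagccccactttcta
Ythdf1 1629: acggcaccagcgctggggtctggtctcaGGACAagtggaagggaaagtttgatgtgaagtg
Ythdf2 831: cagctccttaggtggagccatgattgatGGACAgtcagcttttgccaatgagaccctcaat
Ythdf2 1446: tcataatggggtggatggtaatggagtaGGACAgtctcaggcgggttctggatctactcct
Ythdc1 627: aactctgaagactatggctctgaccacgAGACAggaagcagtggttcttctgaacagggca
Prrc2a 1401: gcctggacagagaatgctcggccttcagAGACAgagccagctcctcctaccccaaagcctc
Prrc2a 3159: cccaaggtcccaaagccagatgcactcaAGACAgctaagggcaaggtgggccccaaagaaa

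In the deposited mm9 coordinates, counted from 1 at that A, the Ythdf1 sites (ENSMUSG00000038848.14) lie on the minus strand of chromosome 2 at 180646775 (position 496) and 180645642 (position 1629). The Ythdf2 sites (ENSMUSG00000040025.17) lie on the minus strand of chromosome 4 at 131761493, 131761262 and 131760647, for positions 600, 831 and 1446. The Ythdc1 site (ENSMUSG00000035851.14) lies on the plus strand of chromosome 5 at 87246025. The Prrc2a sites (ENSMUSG00000024393.14) lie on the minus strand of chromosome 17 at 35296814 (position 1401) and 35293665 (position 3159).

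The sites of the YTHDF paralogs sat in 1 long internal exon of each gene. Exon 4 of 5 holds all 5 of them and measures 1521 nt in Ythdf1 and 1584 nt in Ythdf2. The distance to the nearest exon junction was 138 and 251 nt for Ythdf1 and 138, 369 and 601 nt for Ythdf2. The Prrc2a site at 3159 also lay in a long exon (exon 16 of 31, 1842 nt), 488 nt from a junction. The remaining sites lay nearer to one: Prrc2a 1401 in exon 11 (211 nt), at 90 nt, and Ythdc1 627 in exon 4 of 17 (427 nt), at 94 nt. Over all 843 matched coding sites, 42.0% were within 100 nt of a junction and the median distance was 142 nt. Of these coding sites 57.9% lay in internal exons and 61.4% in exons over 400 nt. No member site was within 200 nt of the end of the coding sequence, where 19.9% of the matched coding sites lay.

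Most motifs of the same kind in these transcripts were not in the table. Ythdf2 holds 12 GGACA and 4 AGACA on its sense strand, of which 3 GGACA were listed, and Ythdf1 holds 9 and 4, of which 2 GGACA were listed. Ythdc1 holds 4 GGACA and 3 AGACA with 1 AGACA listed, and Prrc2a holds 4 and 8 with 2 AGACA listed. Across the matched transcripts of 1254 coding genes with a listed site, counted before the check of neighbouring genes that left 1232 named genes, 11.4% of GGACA and 6.49% of AGACA motifs were listed, shares that count only genes having at least 1 site. Why a site was listed is not stated in the sources at hand, and a motif that is not listed is not thereby unmethylated.

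**Figure D1:**
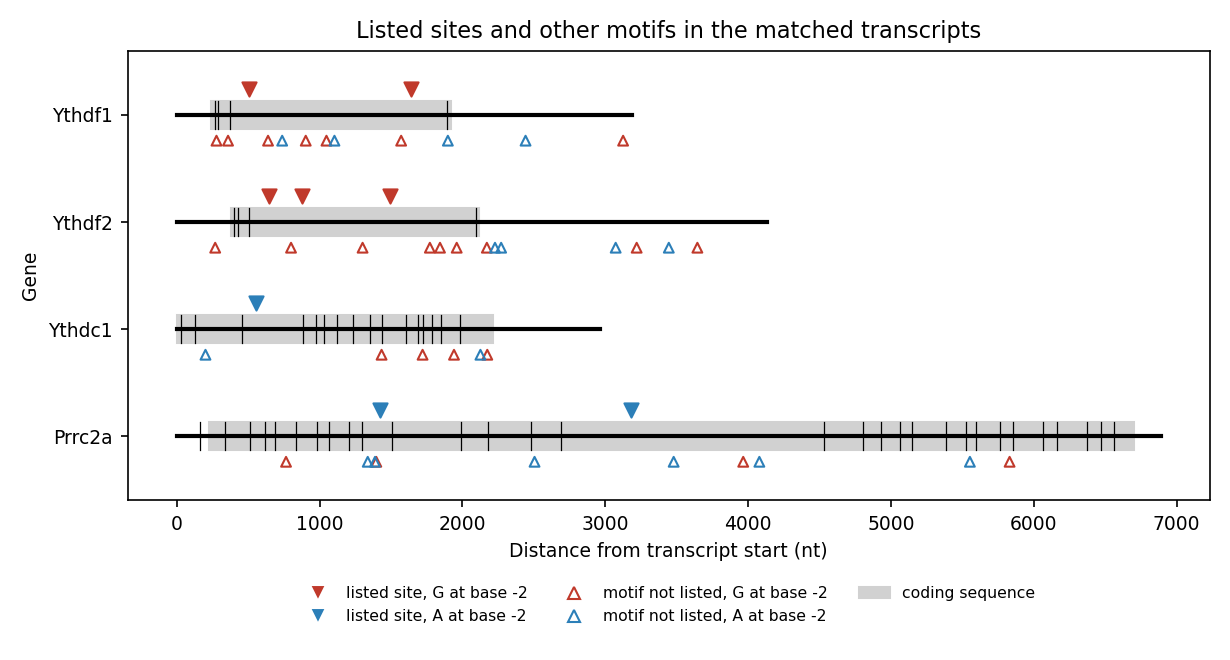
Matched transcripts of the 4 genes against distance from the transcript start in nt, with the coding sequence in grey, exon junctions as vertical lines, listed sites as filled triangles above and other GGACA (red) or AGACA (blue) motifs as open triangles below. The 5 listed sites of Ythdf1 and Ythdf2 all fall in the long exon 4, and exon 4 of Ythdc1 holds its listed site.

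Other ACA sequences nearby can be cut as well, and the distance to the nearest of them is given for each site. It was 68 and 54 nt for the Ythdf1 sites (positions 496 and 1629) and 29, 78 and 87 nt for the Ythdf2 sites (positions 600, 831 and 1446). It was 23 nt for Ythdc1 and 24 and 46 nt for Prrc2a (positions 1401 and 3159). Thus 4 of 8 sites had another ACA within 50 nt, against 64.7% of all 1473 matched sites. The part of this spacing in the values was not tested.

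In ESC, all 5 sites of the YTHDF paralogs had lower values in WT than in KO. At Ythdf1 1629 the ESC WT column lists 0 and the ESC KO column 0.890. Ythdf1 496 was at 0.250 in WT and 0.921 in KO. Ythdf2 831 was also listed at 0 in WT and reached 0.707 in KO. These 2 sites listed at 0 were among 48 such sites in the ESC WT column, which has 1274 values. Ythdf2 600 was at 0.321 in WT and 0.924 in KO. Ythdf2 1446 was at 0.199 in WT and 0.732 in KO. For these sites the highest WT value, 0.321, lay below the lowest KO value, 0.707. Low WT values are common at this motif: the ESC WT median was 0.298 over all GGACA sites and 0.228 over those in coding internal exons above 400 nt, so Ythdf2 600 lay above both medians and Ythdf1 496 above the latter.

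The sites of the other genes were cut more in WT. Ythdc1 627 was at 0.921 in ESC WT and 0.952 in ESC KO, cut nearly to completion in both genotypes. Prrc2a 3159 was at 0.380 in WT and 0.652 in KO, and Prrc2a 1401 at 0.455 in WT and 0.639 in KO. The Prrc2a sites were thus partly cut with and without Mettl3, and lay between the paralogs and Ythdc1 in WT and below all other member sites in KO.

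**Figure D2:**
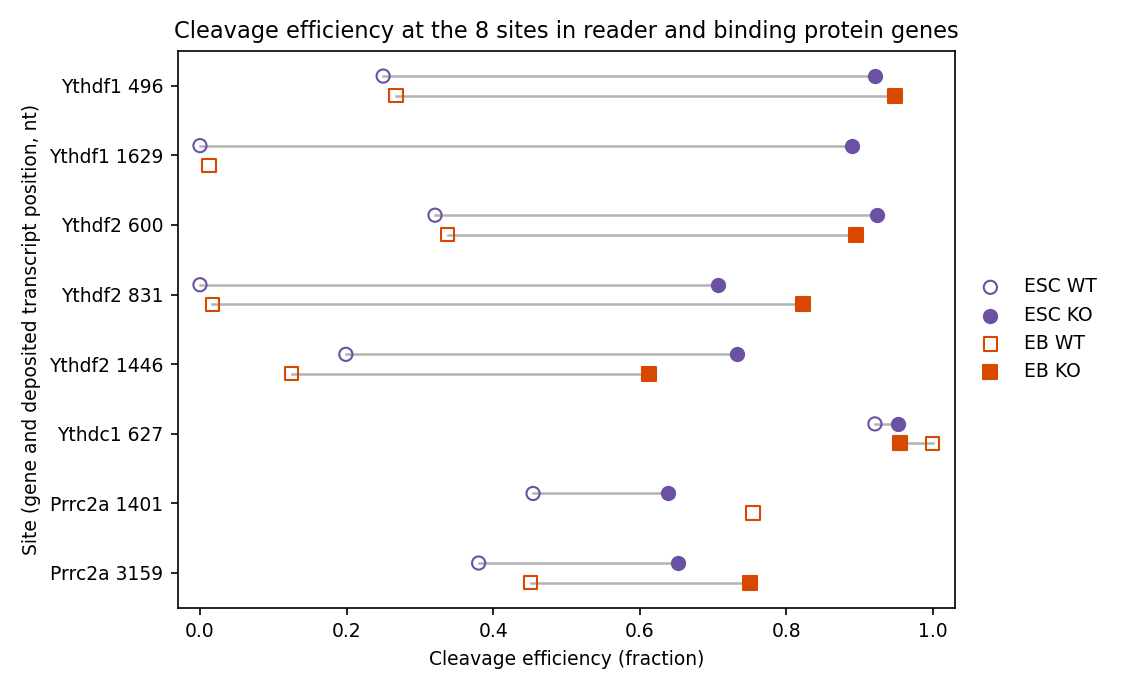
Cleavage efficiency (fraction, horizontal axis) of the 8 sites, with ESC as purple circles and EB as orange squares, open for WT and filled for KO, and a grey line joining WT to KO where both are given. WT lies left of KO at every site in ESC and at 5 of the 6 sites with both values in EB, Ythdc1 627 being the exception.

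Setting KO against WT in ESC asks how far cleavage at these transcripts depended on Mettl3. Of the 8 sites, 7 were higher in KO by at least 0.10, the size counted as a difference here, and none was lower by that size. Among all 1046 sites with both values, 55.4% were higher by this size and 2.58% lower. The median difference of the 8 sites was 0.568, against 0.130 over all sites. Individual differences ran from 0.0313 at Ythdc1 627 to 0.890 at Ythdf1 1629, the latter above 99.4% of all sites. Without the 3 Ythdf2 sites, 4 of 5 sites were higher, with a median of 0.272. Centring each column on its median shifts every ESC difference by −0.373, which put the median of all sites at −0.243, with 25.9% above 0. After that shift the sites of the YTHDF paralogs lay at 0.160 to 0.517. Prrc2a 3159, Prrc2a 1401 and Ythdc1 627 lay at −0.101, −0.189 and −0.342. The shift is the same for every site and leaves their order as it was. With or without it, both Prrc2a sites lay above the median of all sites and Ythdc1 627 below it.

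The member sites differed with the base before the GACA they all share. The 5 GGACA sites differed by 0.533 to 0.890 (median 0.671) and the 3 AGACA sites by 0.0313, 0.184 and 0.272. Among all listed sites the share higher in ESC KO by at least 0.10 was 63.7% for GGACA (median 0.181) and 41.8% for AGACA (median 0.0677). Gene and motif cannot be told apart within the members, since no member gene has listed sites of both kinds. A nearer background is the 84 GGACA coding sites with both ESC values that lie in internal exons over 400 nt: 83.3% of them were higher by at least 0.10, and their median was 0.411. Within that set the 5 sites of the YTHDF paralogs ranged from above 61.9% of sites (Ythdf2 1446) to above 98.8% (Ythdf1 1629). All 5 being higher is thus near the share of sites of the same motif and exon type, and their sizes lie in its upper part.

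**Figure D3:**
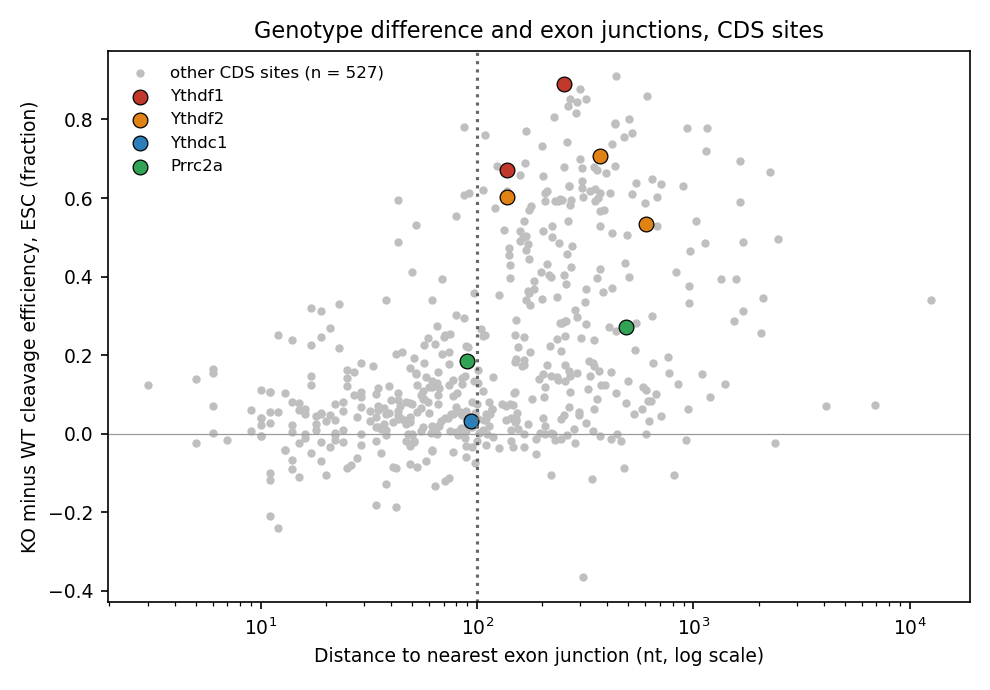
KO minus WT cleavage efficiency in ESC (fraction) against distance to the nearest exon junction (nt, log scale) for coding sites, with 527 other sites in grey, the 8 member sites in colour and a dotted line at 100 nt. The 5 sites of Ythdf1 and Ythdf2, all GGACA, lie between 138 and 601 nt with differences of 0.533 to 0.890. Of the AGACA sites, Ythdc1 627 and Prrc2a 1401 lie at 94 and 90 nt with 0.0313 and 0.184, and Prrc2a 3159 at 488 nt with 0.272.

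The difference is bounded by how far a site is cut in KO, so WT was also expressed as a percentage of KO. In ESC this was 27.1% at Ythdf1 496 and 27.2% at Ythdf2 1446, although their differences were 0.671 and 0.533. It was 34.7% at Ythdf2 600, and 0 at the pair of sites listed at 0 in WT. Prrc2a stood at 58.3% (position 3159) and 71.1% (position 1401), and Ythdc1 at 96.7%. The median over all 1025 sites with a KO value above 0 was 74.7%, and that of GGACA sites was 57.1%. On this scale Ythdf1 496 and Ythdf2 1446 were nearly equal, the latter having the lower KO value (0.732 against 0.921). That did not extend to Ythdf2 831, whose KO value was lower still (0.707) and whose difference was larger (0.707). The order was again the paralogs, then Prrc2a, then Ythdc1.

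A pair of the sites occupy the same place in the paralogs. Aligned base by base, the coding sequences of Ythdf1 (1680 nt) and Ythdf2 (1740 nt) were identical at 69.1% of 1662 aligned bases. Ythdf1 496 and Ythdf2 600 both fall on base 270 of the coding sequence and both lie 138 nt from a junction. Their deposited 11 bases are identical, and 44 of the 61 bases shown above are the same. Their cleavage values were close in every group: with Ythdf1 named before Ythdf2, WT values were 0.250 and 0.321 in ESC and 0.268 and 0.338 in EB, and KO values were 0.921 and 0.924 in ESC and 0.949 and 0.895 in EB. Identical bases over a read can also lead to shared reads. These sites differ at 17 bases of the 61, and the treatment of reads that map to more than 1 place is not stated in the sources at hand.

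The other sites of the paralogs had no listed partner. The motif of Ythdf1 1629 is kept in Ythdf2, where the aligned 5 bases, at base 1466 of the coding sequence, are also GGACA, but no value is listed there. The aligned bases of Ythdf2 831 in Ythdf1 read GGGCA and those of Ythdf2 1446 read GGAAA, so neither holds an ACA. The 3 sites that are lowest in EB WT, Ythdf1 1629 (0.0123), Ythdf2 831 (0.0171) and Ythdf2 1446 (0.125), are therefore each listed in a single paralog.

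Listed sites with the same 11 bases in unrelated genes had other values. The sequence of Ythdf2 831 also occurs at a listed 3′ UTR site of Smad5, a signal transducer of the BMP pathway, at 0.0323 in ESC KO and with no other value, against 0.707 at Ythdf2 831. The sequence of Prrc2a 1401 recurs at a 3′ UTR site of Anapc4, a subunit of the anaphase-promoting complex. That site was at 0.103 in ESC WT and 0.389 in ESC KO, a difference of 0.286 beside 0.184 at Prrc2a 1401. Another listed site with these bases, whose gene match did not pass the check of neighbouring genes, was at 0.252 in ESC WT and 0.667 in ESC KO, a difference of 0.415.

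In EB, too, the paralogs had lower values in WT than in KO. Ythdf1 496 was at 0.268 in WT and 0.949 in KO. Ythdf2 600 was at 0.338 and 0.895, Ythdf2 831 at 0.0171 and 0.823, and Ythdf2 1446 at 0.125 and 0.612. For Ythdf1 1629 only the WT value of 0.0123 was given. As in ESC, every WT value of these sites lay below every KO value. Prrc2a 3159 was at 0.452 in WT and 0.750 in KO, and Prrc2a 1401 at 0.755 in WT with no KO value. Ythdc1 627 was fully cut in WT, with a value of 1, and had 0.956 in KO.

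Of the 6 sites with both EB values, 5 were higher in KO by at least 0.10 and none was lower by that size, while 41.9% of 855 sites were higher and 5.96% lower. The median was 0.522, against 0.0638 over all sites. Centring the columns (a shift of −0.266) left 4 of the 6 higher and 1 lower by that size, with a median of 0.256, and Prrc2a 3159 lay at 0.0320. The median of all sites was then −0.203, with 26.2% of them above 0, and their share past 0.10 after centring is not given here. Ythdf2 831 had the largest member difference, 0.806, above 98.8% of all sites, followed by Ythdf1 496 (0.681), Ythdf2 600 (0.557), Ythdf2 1446 (0.487) and Prrc2a 3159 (0.298). Ythdc1 627 differed by −0.0441. WT as a percentage of KO was 2.08% at Ythdf2 831, 20.5% at Ythdf2 1446, 28.2% at Ythdf1 496, 37.8% at Ythdf2 600, 60.2% at Prrc2a 3159 and 105% at Ythdc1 627. The 4 GGACA member sites had a median of 0.619, against 0.109 for all GGACA sites, of which 51.3% were higher by at least 0.10; for AGACA sites that share was 26.9%. Of the 71 GGACA coding sites with both EB values in internal exons over 400 nt, 73.2% were higher in EB KO by that size (median 0.335). Without the Ythdf2 sites, 2 of 3 sites were higher, with a median of 0.298.

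**Figure D4:**
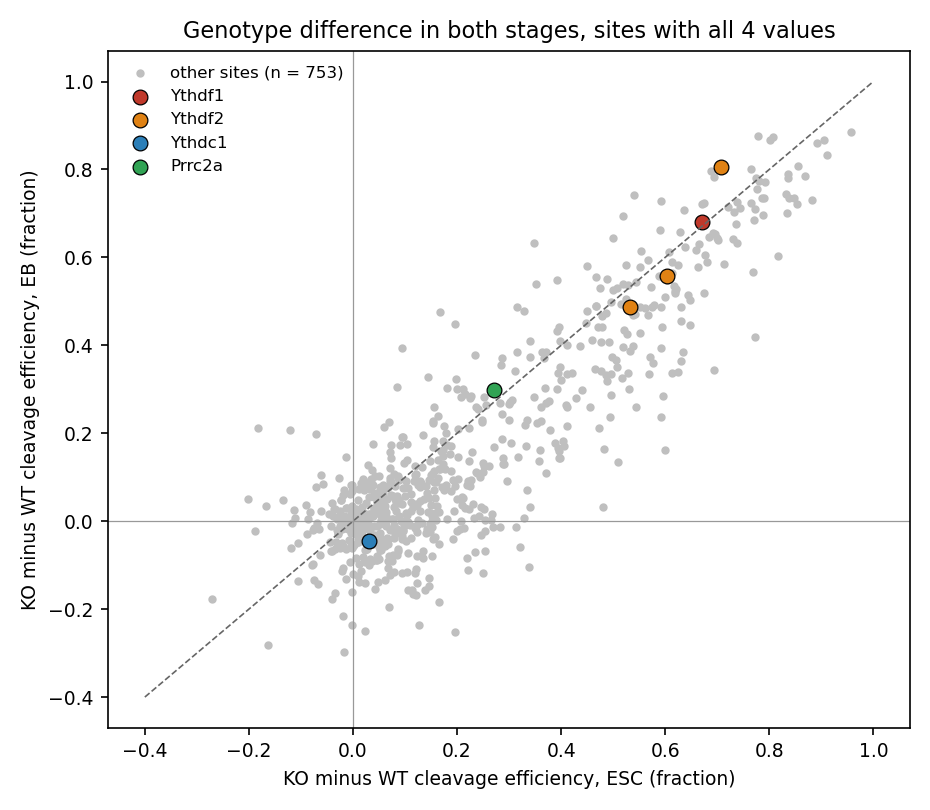
KO minus WT cleavage efficiency (fraction) in ESC on the horizontal axis and in EB on the vertical axis for sites with all 4 values, 753 others in grey and 6 member sites in colour, with a dashed line of equal differences. The 4 sites of Ythdf1 and Ythdf2 lie between 0.487 and 0.806 in EB, near the line, and Ythdc1 627 lies near the origin.

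As deposited, the change of the KO effect with differentiation was under 0.10 at every member with all 4 values, which did not hold on other scales. The difference in EB minus that in ESC was 0.0986 at Ythdf2 831, 0.0265 at Prrc2a 3159, 0.00976 at Ythdf1 496, −0.0460 at Ythdf2 600, −0.0463 at Ythdf2 1446 and −0.0754 at Ythdc1 627. None of the 6 sites thus reached 0.10 in either direction, with a median of −0.0181, while 32% of the 759 sites with all 4 values were lower in EB by that size and 5.53% higher. Centring the columns shifts each of these values by 0.107: all 6 members, like 70.9% of all sites, then lay above 0, 3 of them by at least 0.10 (Ythdf2 831 at 0.206, Prrc2a 3159 at 0.134 and Ythdf1 496 at 0.117), and the member median was 0.0889. On a logit scale (values limited to 0.01 to 0.99, size 0.4) 2 of 6 were lower, Ythdf2 600 at −0.430 and Ythdc1 627 at −2.06. The latter size is set by the limit of 0.99, since the EB WT value of Ythdc1 627 was 1. The shares of all sites past these sizes, after centring or on the logit scale, are not given here. As deposited, the value of Ythdf2 831 lay above 94.2% of the 759 sites. No error is available for any of these differences.

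Between stages within WT, 4 of the 5 sites of the paralogs differed by 0.0123 to 0.0176. The EB minus ESC difference was 0.0176 at Ythdf1 496, 0.0123 at Ythdf1 1629, 0.0173 at Ythdf2 600, 0.0171 at Ythdf2 831 and −0.0737 at Ythdf2 1446. The last of these was the only member site cut less in EB WT than in ESC WT, and it lay above only 7.84% of the 1071 sites with both values. Ythdc1 627 differed by 0.0789 and Prrc2a 3159 by 0.0713. Prrc2a 1401 was at 0.455 in ESC WT and 0.755 in EB WT, a difference of 0.300 that exceeded those of 98.0% of sites and placed EB WT above the ESC KO value of 0.639 at the same site. Thus 1 of 8 sites was higher by at least 0.10 and none lower, against 26.4% and 5.51% of all sites, and the medians were 0.0174 and 0.0408. That 1 site is Prrc2a 1401, and without Prrc2a 0 were higher. Centring shifts these values by −0.0963, after which 1 of 8 sites lay above 0, against 27.4% of all sites. Ythdf2 1446 was then lower by at least 0.10 (−0.170), and the member median was −0.0789, against −0.0555 over all sites. On a logit scale 3 sites were higher and 1 lower.

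**Figure D5:**
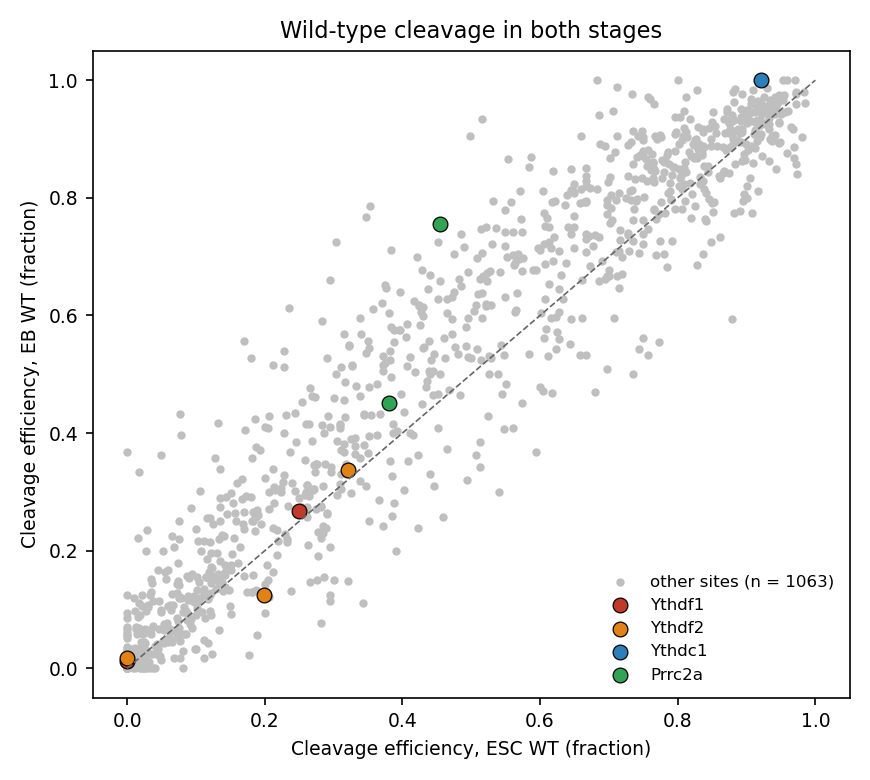
Cleavage efficiency (fraction) in ESC WT on the horizontal axis and EB WT on the vertical axis, with 1063 other sites in grey, the 8 member sites in colour and a dashed line of equal values. Prrc2a 1401 lies farthest above the line among the members (0.455 and 0.755), and Ythdf2 1446 is the only member below it.

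Within the libraries labelled KO, the members differed between EB and ESC by −0.120 at Ythdf2 1446, −0.0287 at Ythdf2 600, 0.00350 at Ythdc1 627, 0.0274 at Ythdf1 496, 0.0978 at Prrc2a 3159 and 0.116 at Ythdf2 831. So 1 of 6 was higher and 1 lower by at least 0.10, against 7.1% and 11.1% of 845 sites. The 95th percentile of the absolute difference over those sites was 0.166, which holds measurement error and stage together. Every KO minus WT difference available at the YTHDF paralogs exceeded that size, in ESC and in EB, where Ythdf1 1629 had no KO value. So did those of both Prrc2a sites in ESC and of Prrc2a 3159 in EB. The Ythdc1 site was under it in both stages. The share of all sites above 0.166 was not counted. Their median difference was below it, at 0.130 in ESC and 0.0638 in EB, but their upper quartile was above it, at 0.392 and 0.284. The median of GGACA coding sites in internal exons over 400 nt was above it, at 0.411 and 0.335, so exceeding it was common there. Ythdf2 1446 was the only member site with a lower value in EB than in ESC in both genotypes.

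Other genes of the pathway were represented thinly. Of 41 further genes of writers, erasers, readers and associated factors, 7 had a listed site, 9 sites in all, and Mettl3 was not among them. Of the 6 with both ESC values, 2 were higher in KO by at least 0.10 and none lower (median 0.0754), and in EB also 2 of 6 (median 0.0534). Over all sites 55.4% were higher in ESC (median 0.130) and 41.9% in EB (median 0.0638). In both stages the 2 were the sites of Eif3a and Cnot1. Eif3a, a subunit of the initiation factor eIF3, had a coding GGACA site at 0.145 (WT) and 0.821 (KO) in ESC, and at 0.263 and 0.869 in EB. Cnot1, the scaffold of the CCR4-NOT complex that Ythdf2 recruits, had a coding GGACA site at 0.522 (WT) and 0.932 (KO) in ESC, and at 0.620 and 0.885 in EB.

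The paralogs of Prrc2a did not show its mid-range values. Prrc2b had a coding AGACA site below 0.10 in all groups, from 0.0234 in ESC WT to 0.0870 in ESC KO, and a GGACA site at 0.919 in ESC WT, 0.833 in ESC KO and 0.932 in EB WT. Prrc2c had a GGACA site between 0.920 and 0.957 in all 4 groups and an AGACA site at 0.831 (WT) and 0.918 (KO) in ESC, and at 0.891 and 0.828 in EB. Virma, a subunit of the m6A writer complex, was listed at 0.500 in ESC KO and 0.595 in EB WT with no matching genotype. Rida, which bridges Ythdf2 to RNase P/MRP, had a 5′ UTR site at 0.938 in ESC WT, 0.905 in EB WT and 1 in EB KO. Rbmx, an RNA-binding protein gene, was listed at 0 in EB WT with no other value.

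Sites of other genes with the nearest profiles were sought over the 4 columns, among 651 non-member sites with all 4 values and a gene name. Nearest to Ythdf1 496 were a 3′ UTR site of Ostc (Euclidean distance 0.0313) and a coding site of Topors (0.0383). Nearest to the mean of the 3 Ythdf2 sites were a coding site of Nfatc3 (0.0609) and a 3′ UTR site of Mau2 (0.0642). For Ythdc1 627 they were sites of Eif4a1 (0.0448) and Rcc2 (0.0460), and for Prrc2a 3159 sites of Rtn4 (0.109) and Thrap3 (0.110). The nearest neighbours of the YTHDF paralogs all carry GGACA and those of Ythdc1 carry the AGACA motif. Those of Prrc2a carry GGACA although its site is of the other kind. The motif shares among the 651 sites are not given. Of all 1626 listed sites, 1016 carry GGACA, and the ESC WT median was 0.298 at that motif, against 0.687 at AGACA sites. Whether the neighbours share a motif more often than other sites with such values was not tested.

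The basis of the deposited classes is not stated in the sources at hand. Of the member sites 5 were CellRep_high (771 of all 1626 sites), Ythdf2 1446 and Prrc2a 1401 were CellRep_intermediate (491) and Ythdc1 627 was CellRep_low (249). The intermediate class thus held a site with a difference of 0.533 and 1 with 0.184 in ESC.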

How the data were processed

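A single deposited table was used, in which the authors give a cleavage efficiency per site and group as a fraction. STAR 2.5.3a, bedtools 2.26.0 and the build mm9 are named, with no role, per the submitters' processing notes. The sources at hand do not state read counting, depth or the pooling of libraries. No column belonged to a single library (0 other value columns), so the model per library could not be fitted, and differences of the fractions were described by counts at 0.10 and by medians.

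Sites were matched to GENCODE M21 transcripts (GRCm38) by their 11 bases, with base 6 the A of ACA, within 100 nt of the position listed for the transcript and within 10 Mb on the chromosome; coordinates printed are those deposited. Of 1626 sites 1473 matched 1 gene, and 1423 (all 8 members included) shared their build offset with a neighbouring gene. On the opposite strand 54 sites matched. The matching was tested on simulated sites, copied from the same transcripts and shifted within the search limits. That test covers neither sequence differences between builds nor false matches. Python 3.11.15, pandas 2.3.3 and Biopython 1.88 were used. Members and lists were chosen with earlier results of these data known. Named sites are all member sites, those of the pathway list and the 2 nearest profiles per gene; Smad5 and Anapc4 were named for sharing a member's 11 bases, after their values were seen. Exon, junction and ACA windows were set after seeing the data.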

Additional observations from a re-analysis of the deposited data

Results flagged for a closer look

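At 3 of the sites named here the KO minus WT difference had opposite signs in ESC and EB, with 1 value per group, and the difference between stages was not tested. At Ythdc1 627 it was 0.0313 in ESC and −0.0441 in EB, a change of −0.0754. At the AGACA site of Prrc2c it was 0.0872 and −0.0637, a change of −0.151. At Eif4a1 it changed by −0.014.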

How the results depend on the processing

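No paired analysis was possible because the table gives 1 column per group and none per replicate, so neither a replicate block nor leaving out a replicate could be run. Centring the columns on their medians over the 759 sites with all values moved every KO minus WT difference by −0.373 in ESC and −0.266 in EB, and so removes a general effect of genotype too. It left member medians of 0.195 and 0.256, with 3 of 8 and 1 of 6 sites lower by 0.10. Over all sites the medians were then −0.243 in ESC and −0.203 in EB, with 25.9% and 26.2% above 0. Both Prrc2a sites then changed sign in ESC (−0.101 at 3159 and −0.189 at 1401). They lay above the median of all sites with or without the shift, which cannot change the order of sites. All sites of Ythdf1 and Ythdf2 stayed above 0. Centring gave 1 site lower for EB minus ESC in WT, 2 sites higher in KO, and 3 sites higher with a median of 0.0889 for the change of the KO effect. On a logit scale (values limited to 0.01 to 0.99, size 0.4) 8 of 8 sites were higher for KO minus WT in ESC, including Ythdc1 627 at 0.539. In EB 1 site was lower, Ythdc1 627 at −1.52, a size set by the limit of 0.99 because its EB WT value was 1. On the same scale 3 were higher and 1 lower for EB minus ESC in WT, 3 were higher in KO, and 2 were lower for the change of the KO effect. The limits also set the sizes of Ythdc1 627 (2.14) and Ythdf2 831 (0.543) in WT, and of Ythdc1 627 (−2.06) for the KO effect. No share of all sites on the logit scale, or past 0.10 after centring, is given here, so these member counts have no background. Without the Ythdf1 sites the ESC median was 0.403. Without the Ythdf2 sites, 4 sites were higher in ESC (median 0.272) and 2 in EB (0.298), and 0 were higher or lower for EB minus ESC in KO, as also at a size of 0.20. For EB minus ESC in WT, 0 sites were higher without Prrc2a or among sites with all 4 values. The depth behind each fraction is unknown, so values listed at 0 carry no limit.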
